A study of Mus musculus with 6 samples.

Results

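The genes described here are *Gpx3*, *Gpx4*, *Prdx6*, *Mgst3*, *Gstt1*, *Gstt2*, *Gstt3* and *Txnrd1*, which encode peroxidases, glutathione transferases and a thioredoxin reductase of the mouse. They were read as every probe set that the platform's annotation gives to 1 of these symbols alone, which found 64 of the 58919 tested probe sets, for 8 of 5017 genes. A probe set is a small group of oligonucleotide probes placed in 1 stretch of a transcript, roughly an exon, so a gene is measured several times over on the same array. The genes were picked with earlier results of the comparison below in view, in which several of them had lower signals in the knockout, so their differences are given as a description and no test of them is reported.

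Total RNA of mouse brain was hybridised to 6 whole-transcript arrays. The 3 knockout arrays carry the genotype APPPS1-FVBxABCC1 and the 3 control arrays the genotype APPPS1-FVB, so the control mice carry the APPPS1 transgenes as well. APPPS1 mice express mutant human amyloid precursor protein and presenilin in neurons from a *Thy1* promoter and form amyloid plaques, FVB is an inbred strain, and *Abcc1* encodes a membrane transporter that exports glutathione, glutathione conjugates and cysteinyl leukotrienes. The labels give brain as the tissue with no age or sex, and do not say that the arrays are separate animals, so every spread below is a spread between arrays that may be technical. No value of *Abcc1* was used here, and the genotypes therefore stand as labelled.

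Glutathione is the main small thiol of the cell. Glutathione peroxidases spend it to reduce hydrogen peroxide and lipid peroxides, glutathione transferases couple it to reactive molecules so that these can be exported, and peroxiredoxins reduce peroxides through a reactive cysteine. In the brain astrocytes are a main source of glutathione for neurons.

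Of the 5017 genes named in the table, 4918 lie on chromosomes 1, 10, 11, 12 and 13, so counts over all genes, and the measured genes of every list below, describe these chromosomes and not the whole genome. Signals are on a log2 scale as deposited, and array medians lay from 7.04 to 7.09. The correlation of any pair of arrays was at least 0.984. Over the whole table, limma at an adjusted p below 0.05 gave 3 higher probe sets (0.00509%), none of which carries a symbol, and 0 lower ones (0%). At a raw p below 0.05 it gave 2799 higher (4.75%) and 1732 lower (2.94%). Neuron markers, 4 measured of 14 genes, had mean log2 signals from 10.24 to 10.30 in the knockout arrays. In the control arrays they ran from 10.26 to 10.28. The features taken as controls of the array had a median signal of 4.19. By array their median was 4.27, 4.29 and 4.2 in the knockout arrays and 4.09, 4.16 and 4.11 in the control arrays. The groups are thus separate in these features, and the bearing of this on the differences below was not tested.

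Of the 64 probe sets, 48 (75%) had a lower mean in the knockout than in the control, where 47.2% of all tested probe sets did, and 16 had a higher mean, as did 52% of all. In 17 of the 64 (26.6%) all knockout arrays lay below all control arrays, against 5.52% of all tested probe sets, and in 1 all knockout arrays lay above, against 7.94%. The choice of the genes used this same contrast, so nothing is read from the gap between these shares. The median log2 difference, knockout minus control, was -0.12 over the 64 and 0.01 over all tested probe sets. Most of the lower values came from *Gpx3*, *Gpx4*, *Prdx6*, *Mgst3* and *Gstt1*, where 29 of 31 probe sets were lower. All 25 of these 31 with a mean signal of at least 7 were lower, where 43.4% of all tested probe sets of that signal were. These 5 genes were grouped after their values were seen, so nothing is read from their counts. *Gstt2* had 5 lower and 2 higher probe sets, *Gstt3* 3 lower and 3 higher, and *Txnrd1* 11 lower and 9 higher.

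**Figure D1:**
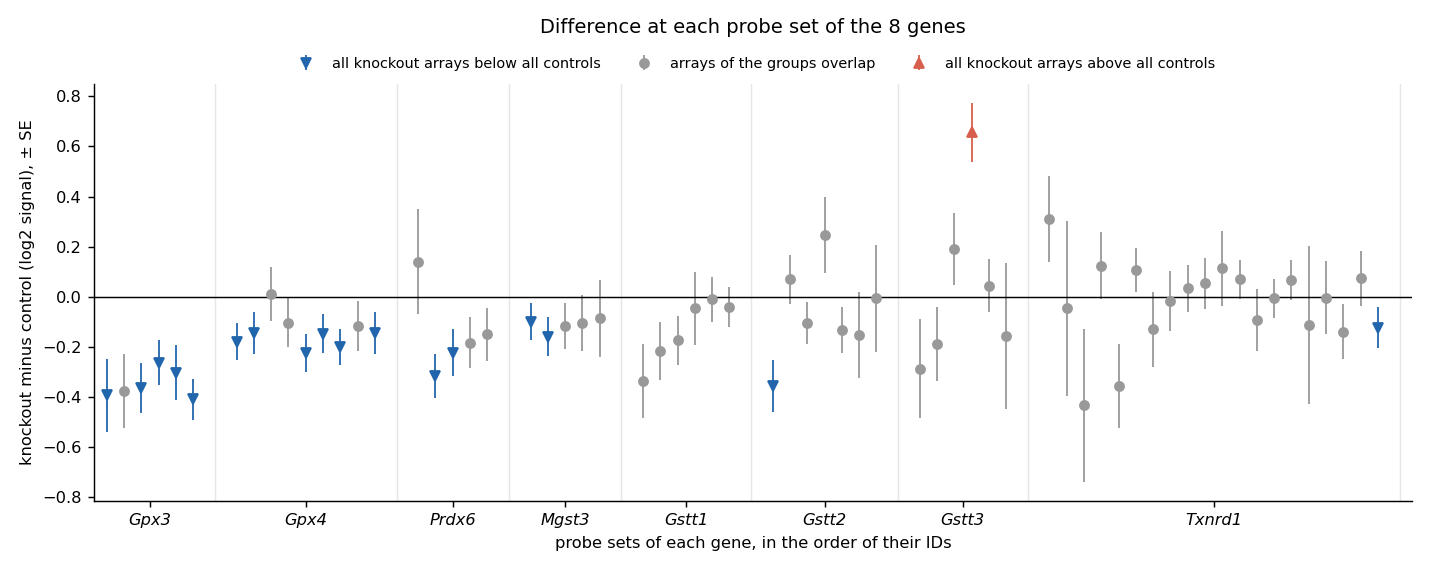
Log2 difference, knockout minus control, at each of the 64 probe sets (y axis, error bars: SE of the limma fit), grouped by gene and in the order of probe set IDs (x axis), with symbols for probe sets at which all knockout arrays lay below or above all control arrays or the groups overlapped. The 6 *Gpx3* probe sets run from -0.41 to -0.26, those of *Txnrd1* spread around 0, and the 1 probe set with all knockout arrays above is in *Gstt3*.

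*Gpx3* encodes the secreted, selenium-containing glutathione peroxidase of plasma and extracellular fluid, and it lies on chromosome 11. Its 6 probe sets were all lower in the knockout, as was the case in 12.7% of the 291 genes with 6 probe sets and in 4.81% of all genes with at least 5. At probe set 10376207 the signals were 8.76, 8.78 and 8.81 in the knockout arrays and 9.22, 9.10 and 9.26 in the control arrays. All knockout arrays lie below all control arrays, and the knockout arrays are close together. The means were 8.78 ± 0.025 in the knockout and 9.19 ± 0.083 in the control (SD, n = 3 each), a log2 difference of -0.41 (SE 0.08) or 0.75-fold.

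The other *Gpx3* probe sets showed the same direction at several signal levels. At 10376204 the knockout arrays had 8.58, 8.80 and 8.66 and the control arrays 9.05, 8.93 and 9.15 (log2 difference -0.36, SE 0.10). At 10376205 the knockout arrays had 8.81, 8.72 and 8.91 and the control arrays 9.10, 9.14 and 8.99 (-0.26, SE 0.09). At 10376206 the knockout arrays had 8.29, 8.26 and 8.09 and the control arrays 8.44, 8.42 and 8.69 (-0.30, SE 0.11). At each of these 3 probe sets the highest knockout array stays below the lowest control array. At 10376202, the first by ID, the knockout arrays had 7.14, 7.29 and 6.76 and the control arrays 7.50, 7.40 and 7.47 (-0.39, SE 0.15), with the widest knockout spread of the gene. The exception to the separation is 10376203, with 6.20, 5.79 and 5.71 in the knockout and 6.18, 6.27 and 6.38 in the control (-0.38, SE 0.15), where knockout 1 lies just above control 1.

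Averaged over its 6 probe sets, *Gpx3* had 7.96, 7.94 and 7.82 in the knockout arrays and 8.25, 8.21 and 8.32 in the control arrays. The difference of these means was -0.35 (SE 0.06), and without any single array it stayed between -0.38 and -0.31. All 6 differences were below the 5th percentile of tested probe sets of similar signal. Its 10 nearest measured neighbours on chromosome 11 had a median difference of -0.04, from -0.10 to 0.05. The *Gpx4* and *Prdx6* means, described next, were also below the lowest of their 10 neighbours, at -0.12 for both genes, while that of *Mgst3* was within its neighbours' range of -0.15 to 0.18 and that of *Txnrd1* within -0.05 to 0.16. The described genes, unlike their neighbours, were picked with this contrast in view, so nothing is read from these gaps or from the percentiles.

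**Figure D2:**
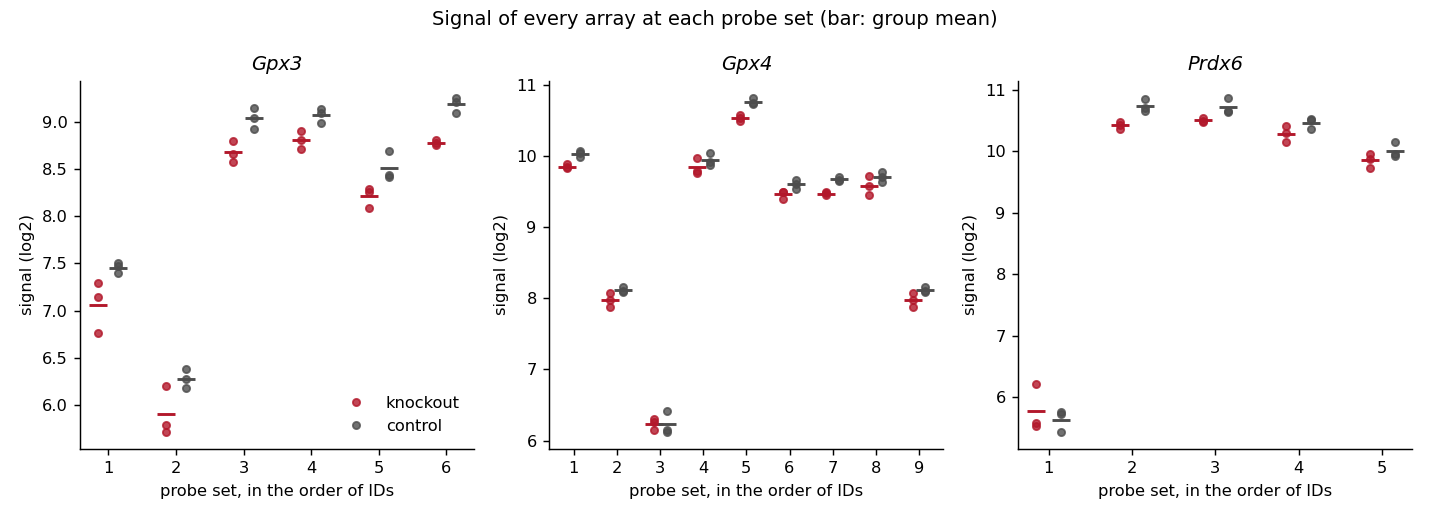
Log2 signal of every array (points) at each probe set of *Gpx3*, *Gpx4* and *Prdx6* (x axis, probe sets in the order of IDs), with knockout left of control and a bar at each group mean. At *Gpx3* probe set 6 the knockout arrays sit between 8.76 and 8.81 and the control arrays between 9.10 and 9.26, and the dimmest probe sets of *Gpx4* (number 3) and *Prdx6* (number 1) overlap.

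*Gpx4* encodes the selenium-containing peroxidase that reduces lipid peroxides inside membranes, an activity that guards cells from ferroptosis. It lies on chromosome 10 and has 9 probe sets, 8 of them lower in the knockout. At 10364678 the signals were 10.58, 10.50 and 10.54 in the knockout arrays and 10.73, 10.74 and 10.82 in the control arrays (log2 difference -0.22, SE 0.08). At 10364680 they were 9.45, 9.49 and 9.48 in the knockout arrays and 9.65, 9.67 and 9.70 in the control arrays (-0.20, SE 0.07). Both groups are tight at these probe sets and do not overlap.

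At 10364679 the knockout arrays of *Gpx4* had 9.49, 9.40 and 9.49 and the control arrays 9.67, 9.54 and 9.61 (-0.15, SE 0.08), again without overlap. The groups overlapped at 10364677 (-0.10), where knockout 1 had 9.98, at 10364681 (-0.12), where knockout 1 had 9.72, and at 10364676. The last is the dimmest of the gene, with 6.30, 6.26 and 6.15 in the knockout and 6.41, 6.15 and 6.12 in the control (0.01, SE 0.11). Knockout 1 is thus the array nearest to the controls at 10364677 and 10364681.

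The remaining *Gpx4* probe sets need care. By the order of IDs, 10363001 and 10363002 stand beside *Hace1* and away from the other 7, which lie between *Arhgap45* and *Stk11*. Probe set 10363002 holds the same values in all 6 arrays as 10364682, with 8.07, 7.88 and 7.97 in the knockout and 8.16, 8.10 and 8.09 in the control (-0.14, SE 0.08), so this pair is 1 measurement. Probe set 10363001 had 9.89, 9.83 and 9.84 in the knockout and 10.04, 9.99 and 10.07 in the control (-0.18, SE 0.07). By its place among the IDs it may lie in a copy of the gene, which was not tested. The *Gpx4* counts and gene mean given here include it and both probe sets of the identical pair. With the pair counted once, 47 of 63 probe sets of the 8 genes were lower and 16 had all knockout arrays below. Over all its probe sets *Gpx4* averaged 8.99 ± 0.062 in the knockout and 9.13 ± 0.031 in the control (SD, n = 3 each), a difference of -0.14 (SE 0.05).

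*Prdx6* encodes a peroxiredoxin with a single reactive cysteine that uses glutathione and also has phospholipase activity. In the brain it is found mainly in astrocytes. Of its 5 probe sets on chromosome 1, 4 were lower in the knockout. At 10359424 the knockout arrays had 10.47, 10.43 and 10.36 and the control arrays 10.66, 10.70 and 10.85 (-0.32, SE 0.09). At 10359425 they had 10.54, 10.47 and 10.49 in the knockout and 10.66, 10.64 and 10.87 in the control (-0.22, SE 0.09), and at both the groups are separate.

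At 10359426 and 10359427 the *Prdx6* differences were -0.18 (SE 0.10) and -0.15 (SE 0.11) with overlapping arrays. The knockout values of 10359427 were 9.73, 9.88 and 9.96 and the control values 9.95, 9.92 and 10.15, so only knockout 3 reaches into the control range. The first probe set by ID, 10359423, went the other way, with 5.53, 6.22 and 5.57 in the knockout and 5.72, 5.75 and 5.43 in the control (0.14, SE 0.21). This rests on knockout 2, and the probe set has the widest knockout spread of the gene, 0.39 (SD, n = 3). Averaged over all 5, *Prdx6* had 9.37 ± 0.055 in the knockout and 9.51 ± 0.017 in the control (SD, n = 3 each), a difference of -0.15 (SE 0.05). Without the third of probe sets with the lowest signal, which removes 10359423, it was -0.22.

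*Mgst3* encodes a membrane-bound glutathione transferase that also has peroxidase activity and can make leukotriene C from leukotriene A. All 5 of its probe sets on chromosome 1 were lower in the knockout by small amounts, from -0.16 to -0.09, and 14.7% of the 341 genes with 5 probe sets had all of them lower. At 10359863 the signals were 9.43, 9.53 and 9.40 in the knockout arrays and 9.58, 9.63 and 9.63 in the control arrays (-0.16, SE 0.08). At 10359862 they were 8.27, 8.27 and 8.30 in the knockout arrays and 8.37, 8.34 and 8.43 in the control arrays (-0.10, SE 0.07). These 2 are separate between groups, the other 3 overlap.

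The mean over the *Mgst3* probe sets had little spread, at 8.02, 8.03 and 8.03 in the knockout arrays and 8.13, 8.12 and 8.16 in the control arrays. The difference was -0.11 (SE 0.04). It is smaller in size than that of *Gpx3*, and the groups do not overlap, as the plot of gene means shows.

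**Figure D3:**
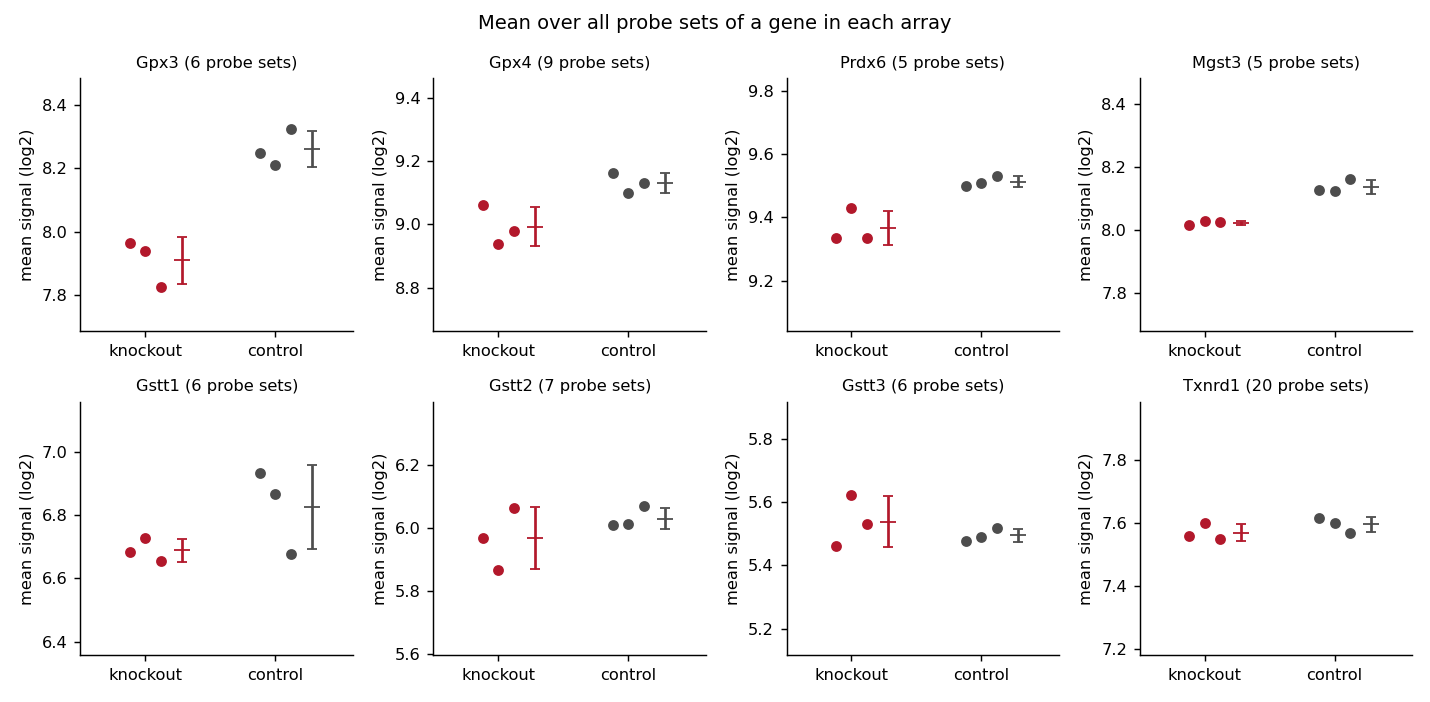
Mean log2 signal over all probe sets of a gene in each array (points), with the group mean and SD (bars, n = 3 arrays), knockout left of control, 1 panel per gene and a y axis of equal length in each. The groups are separate for *Gpx3*, *Gpx4*, *Prdx6* and *Mgst3*, and they overlap for *Gstt1*, *Gstt2*, *Gstt3* and *Txnrd1*.

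The theta class of cytosolic glutathione transferases is represented by *Gstt1*, *Gstt2* and *Gstt3*, which lie near each other on chromosome 10, with *Gstt4* between *Gstt1* and *Gstt2*. They are relatives in sequence, so probes of one may also bind transcripts of another, which was not tested, and their values are uncertain to that extent. All 6 *Gstt1* probe sets had lower means in the knockout, from -0.34 to -0.01, and none had separate groups. Every probe set was lower in 12.7% of the 291 genes with 6 probe sets. At 10370004, 10370005 and 10370006 the differences were -0.05, -0.01 and -0.04, each smaller in size than its SE. At 10370001 the knockout arrays had 7.91, 8.01 and 7.65 and the control arrays 8.34, 8.29 and 7.95 (-0.34, SE 0.15). At 10370003 the knockout arrays had 8.15, 8.24 and 8.07 and the control arrays 8.46, 8.22 and 8.30 (-0.17, SE 0.10).

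The overlap of *Gstt1* came mostly from control 3. It had the lowest control value at 10370001, 10370002 and 10370004, where it stood at 7.95, 7.78 and 7.61. The gene's mean over probe sets was 6.68, 6.73 and 6.66 in the knockout arrays and 6.93, 6.87 and 6.68 in the control arrays, a difference of -0.14 (SE 0.07) that was -0.21 without control 3 and -0.08 without control 1. The last probe set by ID, 10370006, had signals between 2.21 and 2.34 in all arrays, under the median of the control features.

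*Gstt2* had 7 probe sets, 5 lower and 2 higher. The first by ID, 10370014, had 4.92, 4.95 and 5.16 in the knockout and 5.29, 5.33 and 5.48 in the control (-0.36, SE 0.10), with separate groups. The next probe sets did not share this size. At 10370015 the difference was 0.07 (SE 0.10), at 10370017 it was 0.25 (SE 0.15) and at the brightest, 10370020, it was -0.01 (SE 0.21). The mean over the gene was 5.97 ± 0.098 in the knockout and 6.03 ± 0.034 in the control (SD, n = 3 each), a difference of -0.06 (SE 0.06) that was -0.013 without knockout 2 and -0.11 without knockout 3.

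*Gstt3* gave opposite values at its probe sets. At 10369997 the knockout arrays had 5.82, 5.97 and 6.17 and the control arrays 5.45, 5.29 and 5.25, a log2 difference of 0.66 (SE 0.12) or 1.58-fold. It is the largest difference in size among the 64 probe sets and the only one with all knockout arrays above all control arrays, and it exceeded the differences of 98.2% of the 3643 tested probe sets of similar signal. The probe sets next to it by ID, 10369996 and 10369998, had 0.19 (SE 0.14) and 0.04 (SE 0.11) with overlapping groups. The brightest, 10369994, had 6.61, 6.86 and 6.45 in the knockout and 6.94, 7.26 and 6.58 in the control (-0.29, SE 0.20). A single value for *Gstt3* therefore depends on the summary, at 0.04 (SE 0.05) for the mean of all probe sets, 0.21 for their median in each array and -0.29 at the brightest.

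Most of the measured genes around the theta cluster had lower values. By the mean of probe sets *Gstt3* itself was at 0.04, and *Gstt1*, *Gstt2* and *Gstt3* all had overlapping groups. Of the 11 other genes among the nearest measured neighbours of *Gstt1*, *Gstt2* and *Gstt3*, 10 were lower in the knockout by the mean of their probe sets and in 5 all knockout arrays lay below all controls. Over all 5017 genes these shares were 51.4% and 8.85%. By limma 0 of the 11 passed, the smallest adjusted p being 0.248. At a raw limma p below 0.05, 5 were lower, where 6.12% of all genes were. Those 5 are *Ddt*, which encodes D-dopachrome tautomerase, a relative of the cytokine MIF (-0.32, SE 0.09), *Derl3*, of endoplasmic reticulum protein degradation (-0.21, SE 0.07), *Gstt4*, a further theta transferase (-0.17, SE 0.07, but -0.06 at its brightest probe set and -0.11 without knockout 2), *Smarcb1*, a chromatin remodelling subunit (-0.17, SE 0.05), and *Chchd10*, a mitochondrial protein (-0.13, SE 0.05). The *Gstt4* group means, 4.16 in the knockout and 4.33 in the control, were near the control feature median of 4.19. This neighbourhood was looked at after its values were seen. Its genes *Ddt*, *Gstt4*, *Ggt1* and *Ggt5* are counted again in the lists of redox genes below, so the counts are not separate.

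*Txnrd1* encodes the cytosolic thioredoxin reductase, a selenium-containing enzyme that keeps thioredoxin reduced at the expense of NADPH. With 20 probe sets it is the most densely measured of the 8 genes, and its differences centred on 0, with a median of -0.005. At the brightest, 10365275, the signals were 10, 9.96 and 9.96 in the knockout arrays and 9.92, 9.97 and 10.05 in the control arrays (-0.01, SE 0.08). At 10365273 they were 9.22, 9.17 and 9.16 in the knockout arrays and 9.09, 9.06 and 9.19 in the control arrays (0.07, SE 0.08). The arrays are intermixed at both.

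Only the last *Txnrd1* probe set by ID, 10365281, had separate groups, with 8.43, 8.28 and 8.40 in the knockout and 8.53, 8.44 and 8.51 in the control (-0.12, SE 0.08). The widest differences belonged to dim probe sets, -0.43 (SE 0.31) at 10365264, -0.36 (SE 0.17) at 10365266 and 0.31 (SE 0.17) at 10365261. The mean over all 20 was 7.57 ± 0.026 in the knockout and 7.59 ± 0.024 in the control (SD, n = 3 each), a difference of -0.03 (SE 0.04).

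**Figure D4:**
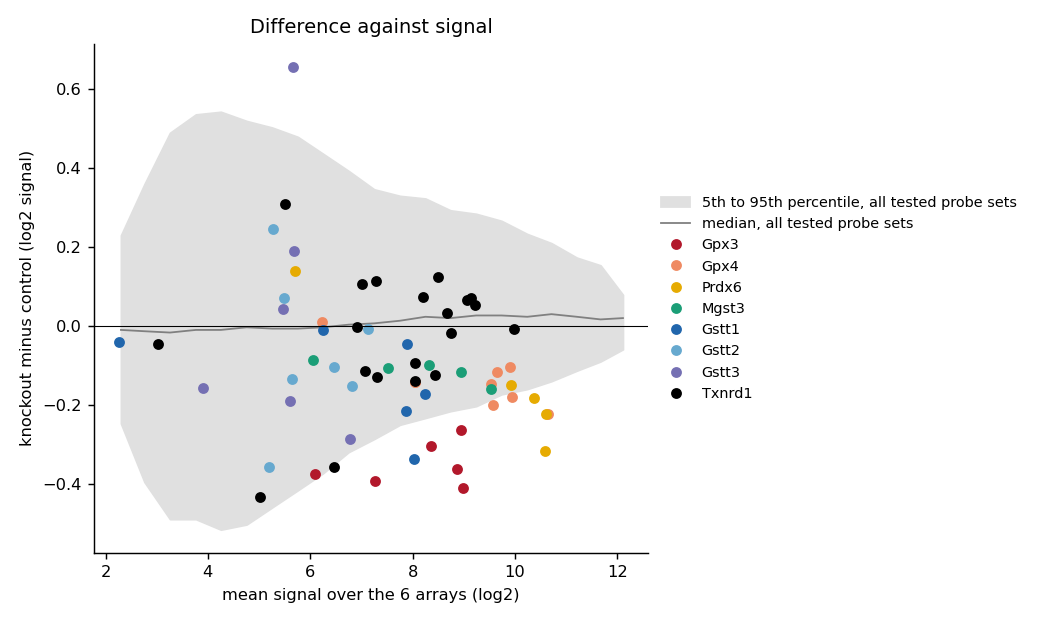
Log2 difference, knockout minus control (y axis), against mean log2 signal over the 6 arrays (x axis) for the 64 probe sets, coloured by gene, over the 5th to 95th percentile (grey band) and median (grey line) of all tested probe sets in bins of signal. Of the 64, 13 had a difference below the 5th percentile of their bin, among them 6 of *Gpx3*, and 1, of *Gstt3*, lay above the 95th.

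Because probe sets of low signal scatter more, the differences were set beside all tested probe sets of similar signal. Of the 64, 13 lay below the 5th percentile of their signal class, 6 in *Gpx3*, 3 in *Gpx4*, 3 in *Prdx6* and 1 in *Gstt1*. For *Mgst3*, *Gstt2*, *Gstt3* and *Txnrd1* the number was 0. Among the 41 probe sets with a mean signal of at least 7, 33 were lower and 16 had all knockout arrays below all controls (39%), where 43.4% and 6.17% of all tested probe sets of that signal did. Among the 23 dimmer ones 15 were lower and 1 had all knockout arrays below (4.35%, against 4.84% of all dim probe sets). The choice of the genes used this contrast, so nothing is read from these gaps either.

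Promoter sequence is shown for *Gpx3* and *Mgst3*, lower at every probe set and holding a match, and for *Txnrd1*, which was split, because the antioxidant response element bound by NRF2 is a known control site of detoxifying genes. The table from RefSeq on GRCm38.p6 held 12 promoters for 6 of the 8 genes. Each line gives the 250 bases before an annotated start, 5′ to 3′ on the gene's strand, with matches to the element's core TGACNNNGC and to the GC box GGGCGG, on either strand, in capitals. The positions are chr11:54902604-54902853 on the plus strand for *Gpx3*, chr1:167393842-167394091 on the minus strand for *Mgst3* and chr10:82858956-82859205 on the plus strand for *Txnrd1*, which has 3 starts in the table.

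Gpx3: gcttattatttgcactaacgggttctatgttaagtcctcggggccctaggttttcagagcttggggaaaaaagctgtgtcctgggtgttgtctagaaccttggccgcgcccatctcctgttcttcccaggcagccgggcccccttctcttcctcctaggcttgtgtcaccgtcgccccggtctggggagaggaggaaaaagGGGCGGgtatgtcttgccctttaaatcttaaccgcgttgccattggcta

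Mgst3: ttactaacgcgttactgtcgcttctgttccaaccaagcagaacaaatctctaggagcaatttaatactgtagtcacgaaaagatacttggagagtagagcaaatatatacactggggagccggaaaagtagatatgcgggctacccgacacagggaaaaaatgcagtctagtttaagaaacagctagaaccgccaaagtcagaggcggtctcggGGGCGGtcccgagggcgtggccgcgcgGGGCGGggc

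Txnrd1: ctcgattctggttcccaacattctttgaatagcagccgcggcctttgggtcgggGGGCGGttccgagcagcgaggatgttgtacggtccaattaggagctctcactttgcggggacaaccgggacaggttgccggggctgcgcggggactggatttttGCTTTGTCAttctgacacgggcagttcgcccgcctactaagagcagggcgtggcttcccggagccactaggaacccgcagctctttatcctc

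The element's core was found in 1 of the 12 promoters, that of *Txnrd1* shown, on the minus strand and starting 92 bases before the annotated start. In all 32851 promoters of the table the share was 10.2%. The GC box was found in 6 of the 12, once in the *Gpx3* sequence, 49 bases before the start, and in 2 places in that of *Mgst3*, and 32.7% of all promoters held it. The *Gpx4* promoters at chr10:80053315-80053564 and chr10:80053409-80053658 overlap, so the same GC box is counted in both, and nothing is read from the shares. The promoter of *Gstt1*, also lower at every probe set, held neither motif and is not printed. A match describes letters only.

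The other genes of glutathione and redox metabolism were tested by the mean of all their probe sets. Of 64 measured genes in 7 lists, 0 passed at a limma adjusted p below 0.05 over all 5017 genes, of which 0 passed (0%). At a raw p below 0.05, 7 were lower and 1 was higher, against 307 lower (6.12%) and 399 higher (7.95%) over all genes, and by the brightest probe set 0 genes passed either. The median difference was -0.06 over the 64 and -0.0044 over all genes, and 44 of the 64 were lower, against 51.4% of all genes. That share of 51.4% also stands beside each count of lower genes in the pathway and marker lists that follow. All knockout arrays lay below all controls in 13 and above all controls in 4, against 8.85% and 11.3% of all genes.

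Among peroxidases and peroxiredoxins 5 of 9 were lower and 0 passed. *Prdx2*, an abundant cytosolic peroxiredoxin seen by 1 probe set, had 10.77 ± 0.021 in the knockout and 10.94 ± 0.006 in the control (SD, n = 3 each), a difference of -0.17 (SE 0.04, limma adjusted p = 0.218). *Sesn1*, a stress-induced sestrin, was at -0.13 (SE 0.05), but at -0.07 at its brightest probe set. *Epx* was at 0.09 (SE 0.05) with all knockout arrays above all controls, but at -0.22 at its brightest probe set. Its group means of 4.27 in the knockout and 4.18 in the control were near the control feature median of 4.19. The glutathione peroxidase genes *Gpx2*, *Gpx5* and *Gpx6*, which serve the gut, the epididymis and the olfactory tissue, had 0.10, 0.03 and -0.04 with overlapping groups.

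In the list of glutathione transferases and relatives 5 of 8 were lower and 2 higher, and 0 passed. The list also holds *Ddt*, which is no transferase and is counted among the lower genes. *Ddt* and *Gstt4* had the smallest raw p, at 0.0107 and 0.0429. *Gdap1*, a relative of the transferases found on mitochondria of neurons, had -0.07 (SE 0.05), but -0.02 at its brightest probe set. *Ltc4s*, the leukotriene C synthase gene, had 0.02 (SE 0.07), and *Gstz1*, the zeta transferase, had the same mean in both groups, 8.18.

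Of 6 genes of glutathione synthesis and turnover, 5 were lower and 0 passed. *Slc25a39*, a mitochondrial glutathione carrier, had -0.12 (SE 0.06, limma adjusted p = 0.378), but 0.03 by the median of its probe sets. The gamma-glutamyl transferase genes *Ggt1* and *Ggt5* had -0.05 and -0.06, and at the brightest probe set both had 0.02.

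Of 15 genes of the thioredoxin and glutaredoxin system, 12 were lower, 3 were higher and 0 passed. *Nxn*, the nucleoredoxin gene, had -0.13 (SE 0.05), *Txndc5*, a disulfide isomerase of the endoplasmic reticulum, -0.15 (SE 0.06), and *Txndc17*, a small thioredoxin-like protein, -0.19 (SE 0.08), and in each all knockout arrays lay below all controls. Their limma adjusted p lay between 0.310 and 0.364, and *Txndc17* was at -0.09 without knockout 1. The glutaredoxin genes *Glrx* and *Glrx2* had -0.06 and -0.0048. Of the 3 higher genes, *Ero1b* had 0.09 (SE 0.05) with all knockout arrays above all controls, and 0.54 (SE 0.12) at its brightest probe set. *Msrb3* had 0.12 (SE 0.06) with overlapping groups, but -0.09 at its brightest probe set.

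Among genes of selenoprotein synthesis and selenoproteins, which *Gpx3*, *Gpx4* and *Txnrd1* depend on or share their selenium with, 2 of 5 were lower, 2 were higher and 0 passed. *Scly*, which recycles selenium from selenocysteine, had -0.11 (SE 0.06), *Selenom* -0.06 (SE 0.06) and *Secisbp2*, which binds selenoprotein messages, 0.04 (SE 0.06). All 3 had overlapping groups, and *Scly* was at -0.06 without knockout 2 and *Selenom* at -0.03 without control 3.

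Of 9 genes of the NRF2 pathway and NADPH supply, 6 were lower, 3 were higher and 0 passed. *Mafg*, a small partner protein of NRF2, had 7.68 ± 0.017 in the knockout and 7.50 ± 0.018 in the control (SD, n = 3 each), a difference of 0.18 (SE 0.04) with all knockout arrays above all controls and a limma adjusted p of 0.215. *Nfe2l1*, also higher, had 0.08 (SE 0.05) with all knockout arrays above all controls. *Idh1*, which makes NADPH in the cytosol, had -0.14 (SE 0.06), and -0.22 at its brightest probe set. *Aldh3a1*, an aldehyde dehydrogenase, had -0.17 (SE 0.08), but -0.08 without control 3 and -0.32 at its brightest probe set. Of 12 genes of lipid peroxidation and ferroptosis, 9 were lower and 0 passed, with the smallest raw p at *Aloxe3* (-0.09, SE 0.04), *Aldh3a2* (-0.12, SE 0.06) and *Alox8* (-0.08, SE 0.04). At their brightest probe sets these 3 had -0.03, -0.02 and -0.02.

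Whole brain RNA mixes cell types, and fewer cells of a type and less RNA per cell cannot be told apart. Of 5 measured astrocyte markers out of 15, 3 were lower. The mean signal over the list was 9.57 to 9.74 in the knockout arrays and 9.70 to 9.89 in the control arrays. *Gja1*, an astrocyte gap junction protein, had -0.15 (SE 0.05) and *S100b* -0.21 (SE 0.07), with limma adjusted p of 0.290 and 0.252, and both had all knockout arrays below all controls, as did *Prdx6*. *Gfap*, the intermediate filament gene of astrocytes, had the largest difference in size of the list, -0.48 (SE 0.25), with 9.79, 9.02 and 9.71 in the knockout arrays and 9.96, 9.59 and 10.42 in the control arrays, which overlap. *Glul*, the glutamine synthetase of astrocytes, had 0.02, and *Sox9*, a transcription factor of astrocytes, 0.04. The part of astrocyte content in the *Prdx6* values was not tested.

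Of 4 measured red blood cell markers out of 14, 4 were lower, with list means of 4.47 to 4.55 in the knockout arrays and 4.65 to 4.73 in the control arrays, and *Slc4a1* at -0.36 (SE 0.07, limma adjusted p = 0.215) by the mean of its probe sets but 0.24 at the brightest. At their brightest probe sets 2 of these 4 were lower, with a median difference of -0.02 against -0.14 by the mean of probe sets. The other markers, *Hba-x*, *Hbq1a* and *Hbq1b*, had group means of 4.34 to 4.50, near the control feature median of 4.19. Of 7 measured markers of meninges and vascular wall out of 16, 6 were lower, with list means of 6.73 to 6.90 in the knockout arrays and 6.83 to 7.02 in the control arrays. *Col1a1*, a fibrillar collagen of meninges, had -0.30 (SE 0.10) and *Dcn*, the decorin gene, -0.25 (SE 0.09), with limma adjusted p of 0.274 and 0.297, but *Col1a1* had -0.03 at its brightest probe set. By the brightest probe set of each gene the list's median difference was -0.02, against -0.13 by the mean of probe sets. The part of these tissues in the *Gpx3* values was not tested.

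Choroid plexus markers were 4 of 6 lower, with list means of 7.15 to 7.29 in the knockout arrays and 7.22 to 7.28 in the control arrays, and their leading genes *F5* and *Kcnj13* had 0.21 (SE 0.05) and 0.21 (SE 0.07), while *F5* had 0.04 at its brightest probe set. Microglia markers were 3 of 3 lower, with list means of 5.08 to 5.87 in the knockout arrays and 5.72 to 5.85 in the control arrays and *Cd68* at -0.41 (SE 0.20). Without knockout 2, *Cd68* was at -0.15 and *Ptprc*, a leukocyte gene of the list, at 0.05, against -0.17 with all arrays. Endothelial markers were 2 of 3 lower, with list means of 7.27 to 7.33 in the knockout arrays and 7.21 to 7.35 in the control arrays. Neuron markers were 2 of 4 lower, and the 1 oligodendrocyte marker, *Cnp*, had -0.05. No marker of any list passed by limma, and signals of a probe set have no true 0 from which an absent marker could be read.

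Across the 6 arrays, the probe set means of *Gpx3* and *Mgst3* had a Pearson r of 0.961, those of *Gpx3* and *Prdx6* 0.923 and those of *Gpx4* and *Prdx6* 0.650, all of which include the difference between the groups. After each group's mean was taken off, these became 0.445, 0.433 and -0.669. Within *Gpx3* the median r of such deviations between pairs of its probe sets was -0.07 over 15 pairs. These are descriptions over 6 arrays, with few deviations left to compare.

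The genes whose mean over probe sets ran most like each peroxidase over the 6 arrays were sought among 3884 genes with at least 4 probe sets. For *Gpx3* they were *Olfr56* (r = 0.983), *Mrpl15* (0.979) and *Bloc1s5* (0.978), for *Gpx4* *Stau2* (0.990), *Steap3* (0.989) and *Tuba4a* (0.988), and for *Prdx6* *Egfr* (0.983), *Hibch* (0.980) and *Tmbim1* (0.977). Among the 3884 candidates, 24, 15 and 11 exceeded 0.95 for *Gpx3*, *Gpx4* and *Prdx6* in that order. All 9 had lower means in the knockout, from -0.26 to -0.07, as the likeness measure favours.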

How the data were processed

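Total RNA of mouse brain was measured on 6 1-colour arrays, 3 knockout and 3 control by the sample titles. The deposited values are log2 signals with 2 decimals, the scale being read from the values. MAS5 is named by the submitters' processing notes, with no version, and no source used here says how the authors scaled the arrays. The value table has 65535 rows here, which name genes almost only of chromosomes 1 and 10 to 13, and genes of other chromosomes were mostly not analysed here. The 6616 rows whose IDs precede every annotated one were treated as controls of the array, by the order of IDs, and left out. Symbols came from the platform's annotation and were updated through the RefSeq table of GRCm38.p6, and 53644 of 58919 probe sets had 1 symbol. No file pairs probe sets with exons.

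Knockout minus control was fitted with limma 3.58.1 in R 4.3.3 (lmFit, eBayes without trend), two-sided, without further normalization, per probe set and per gene mean of all probe sets, with Benjamini-Hochberg adjustment over all of them and a threshold of 0.05. The fit was tested on simulated data with independent noise at each probe set, which says nothing of shifts that probe sets share. Precision is limited by 3 arrays a group, with which the smallest two-sided p of an exact permutation test is 0.1. The members, lists and tests were chosen with earlier results of these data known. The rule for named genes took the 8 members, 3 genes per pathway list and 2 per marker list by smallest raw p, and for *Gpx3*, *Gpx4* and *Prdx6* the 3 genes with the highest r. The split at a signal of 7, the grouping of *Gpx3*, *Gpx4*, *Prdx6*, *Mgst3* and *Gstt1*, and other genes named for comparison were chosen after values were seen. Same-numbered arrays of the groups had correlations of their deviations of 0.0367, -0.07 and -0.1, so the numbers were not taken as pairs. Alternatives changed the normalization, the threshold, the gene summary, the variance model or the weights of arrays, removed dim probe sets or 1 array, or blocked on replicate number.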

Additional observations from a re-analysis of the deposited data

How the results depend on the processing

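Of the 64 probe sets, 48 were lower in the knockout, 49 after quantile normalization, 49 after median centring, 47 with array weights and 44 to 46 without 1 array. All knockout arrays lay below all controls in 17, in 18 and 19 after the same normalizations, and in 20 to 24 without 1 array, where separation is easier to reach. The count with all knockout arrays above all controls was less stable. It was 1, but 0 without the dimmest probe sets (those in the lowest of 3 equal classes of mean signal) and 0 at a signal of at least 7, since the *Gstt3* probe set is left out there, and 1 to 7 without 1 array. That count was 7 without knockout 1, 2 without knockout 2, and 4, 2 and 5 without controls 1, 2 and 3. Over the whole table the 3 calls became 7 at an adjusted p below 0.1, 21 with trend and robust moderation, 19 without the dimmest probe sets, where fewer are tested, 6 after quantile normalization, 7 when arrays were weighted and 7 when they were centred on their medians. They became 0 with the replicate number as a block, which changed no other count and does not stand for pairs here, and 0 to 4 without 1 array, with 0 without knockout 1, knockout 3 or any 1 control and 4 without knockout 2. By gene means the count was 0 in all of these.

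Among genes named for comparison, some signs turned, and the smallest limma adjusted p of a turned value was 0.337. *Epx* had 0.09 by the mean of its probe sets and -0.22 at the brightest and without the dimmest probe sets. At the brightest probe set *Ggt1* and *Ggt5* had 0.02 and *Slc4a1* 0.24. By the median of probe sets *Slc25a39* had 0.03, *Ggt1* 0.073, *Ggt5* 0.0033, *Secisbp2* -0.09 and *Icam2* 0.093. Without 1 array, *Ggt5* ran from -0.118 to 0.0099, *Ggt1* from -0.081 to 0.00036, *Icam2* from -0.077 to 0.019, *Ptprc* from -0.329 to 0.0503 and *Secisbp2* from -0.012 to 0.087. The cause was not tested. The signal over background limits the dim probe sets: 3 of the 64 lay under the median of the control features.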
